A study of Mus musculus with 16 samples.

Results

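The genes described are 37 heat shock proteins, co-chaperones and chaperonin subunits of the mouse. They were chosen by name with earlier results of these data known, so counts over them are descriptions. All probes that the platform annotation pairs with these symbols were taken, which gave 47 probes for 34 genes, out of 25697 probes and 16593 genes in the table. The members Hspa1b, Hsp90ab1 and Hsf1 were paired with no probe by symbol and are not analysed here. Total RNA of femur and of white adipose tissue was hybridised to 16 Illumina bead arrays, 1 tissue sample to each array. The animals were 8 male C3HeB/FeJ mice, all 17 weeks old. Of these, 4 were wild type and 4 were mutants of AEA001, a line from chemical mutagenesis with ENU that is described as an osteoporosis model and carries a mutation in Ednra, the endothelin A receptor gene. Each of the 4 groups of tissue and genotype therefore holds 4 arrays, which bounds how precisely any difference can be known. The labels do not give the zygosity of the mutants, and Ednra itself is not analysed here. An animal identifier in the labels is shared by wild type replicate 3 and AEA001 mutant replicate 4, so the main femur counts and calls are also given without both. P-values measure the spread between these arrays.

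Chaperones bind unfolded proteins and help them fold, and many are induced together by the heat shock factors when proteins are damaged by heat, oxidation or mechanical load. Hsp70 proteins work in cycles that J proteins start and that nucleotide exchange factors such as Hsp110 and the BAG proteins end, and they pass clients to Hsp90 through co-chaperones. Other members are expressed at high level without stress, among them the constitutive Hsp70 Hspa8 and the TRiC chaperonin, which folds actin and tubulin. Members were divided into a stress-inducible class (11 of 12 with a probe), a constitutive class (19 of 20), mitochondrial chaperones (3 of 3) and heat shock factors (1 of 2).

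The heat shock element that these factors bind is a row of alternating 5-base units, and the promoters of 29 members were in the RefSeq promoter table (assembly GRCm38.p6). In the 250 bases before the start site, 2 adjoining units (GAANNTTC or TTCNNGAA, each its own reverse complement, so that both strands were searched) were found for 13 of 29 members, or 44.8%, and for 14.5% of all 27025 genes. The stress-inducible class had 6 of 10, the constitutive class 5 of 16 and the mitochondrial class 2 of 2. The longer rows of 3 units (GAANNTTCNNGAA or TTCNNGAANNTTC, which contain the shorter motif) were found for 3 of 29 members, Dnajb6, Hspd1 and Hspe1, against 0.514% of all genes, and for 0 of 10 stress-inducible members. Rows of 4 units were found for 2 members, Hspd1 and Hspe1, and for 0.0259% of all genes. The windows below are 30 bases each, 5′ to 3′ on the gene's strand, with the matched units in capitals, and show the 5 stress-inducible members with a probe that had a match, and the longest rows. They are Hsph1 at chr5:149636349-149636378 on the minus strand, Hspa1a at chr17:34972240-34972269 on the minus strand, Hspb1 at chr5:135887801-135887830 on the plus strand, Dnaja4 at chr9:54699460-54699489 on the plus strand (1 of its 2 matches), Dnajb4 at chr3:152193846-152193875 on the minus strand, Dnajb6 at chr5:29735844-29735873 on the plus strand and Hspe1 at chr1:55088053-55088082 on the plus strand.
Hsph1: gtagaatctTTCtcGAAggctcgagaagaa
Hspa1a: aaactgctgGAAgaTTCctggccccaaggc
Hspb1: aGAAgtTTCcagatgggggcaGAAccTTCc
Dnaja4: aacctccgcGAAcgTTCtgggcctatgtgg
Dnajb4: gttcgttcgttcgctgTTCtaGAAagtaca
Dnajb6: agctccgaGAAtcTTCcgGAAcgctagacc
Hspe1: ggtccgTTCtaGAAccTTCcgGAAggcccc
The Hspe1 window is the same stretch, read on the other strand, as that found before Hspd1, its neighbour. The window found before Hspa1b, the near-identical neighbour of Hspa1a, has the same 30 bases as that of Hspa1a, and whether the Hspa1a probe also measures Hspa1b was not tested. A match is a description of letters and says nothing about binding, and Chordc1, Dnajb1, Bag3, Stip1 and Hspb8 had no match in this window.

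In femur, the question was whether chaperone transcripts differ between mutants and wild types. Of 34 members, 29 were lower in the mutants, including 11 of 11 stress-inducible and 15 of 19 constitutive genes, while 56% of all 9789 genes tested were lower. That count rests on each gene's brightest probe and on the animals used: 24 of 34 were lower with the mean of all probes of a gene. It was 24 without mutant replicate 4, 25 without both animals that share an identifier, and up to 31 without other single animals. No member passed the test (limma, adjusted p under 0.05), and 0% of all genes did. At an unadjusted p under 0.05, 3 members were lower and 0 higher, against 9.17% of all genes lower and 6.53% higher. Without both animals that share an identifier 6 were lower and 0 higher, and over all settings 2 to 7 were lower. The shares of all genes in those settings are not given here. The groups did not overlap for 5 members, all lower (Chordc1, Fkbp4, Dnaja4, Hspa8 and Dnajb6), against 5.50% of all genes lower and 4.23% higher. The median log2 fold change was -0.25 in the stress-inducible class, -0.05 in the constitutive class, -0.21 in the mitochondrial class and -0.03 over all genes.

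Chordc1, an Hsp90-binding protein with CHORD domains that is itself induced by heat, had the smallest p. Its normalised intensity in femur was 2386, 2065, 1912 and 2099 in wild type replicates 1 to 4, and 1602, 1650, 1562 and 1346 in the mutants (differences, their SE and tests are on the log2 scale, n = 4 for each group). Every mutant lay below every wild type. The difference was -0.46 ± 0.10 (log2, SE), a ratio of 0.728, with an adjusted p of 0.168 by limma. The exact permutation p of 0.0286 (two-sided) is the smallest that 4 against 4 can give. Any gene whose groups do not overlap has that value.

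Hsph1, the Hsp110 that serves Hsp70 as nucleotide exchange factor, measured 3023, 2377, 1726 and 2787 in wild type femur and 1905, 1497, 1469 and 1361 in mutant femur. The groups overlapped through wild type replicate 3, which lay below mutant replicate 1. Its difference was -0.65 ± 0.18 (limma, adjusted p = 0.182). Hspa1a, the classical inducible Hsp70, measured 440.4, 198, 73.9 and 286 in wild types and 215, 86.6, 50.1 and 71.0 in mutants. The lowest wild type was again replicate 3 and the highest mutant replicate 1, and the groups overlapped widely. The difference of -1.20 ± 0.59 was the largest of the members and did not pass the test (limma, adjusted p = 0.335).

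The calls for Chordc1 and Hsph1 depended on wild type replicate 3 and on the fit. Without that replicate, Chordc1 was -0.51 (limma, adjusted p = 0.0423) and Hsph1 -0.81 (limma, adjusted p = 0.0246) and both passed, but 710 of 14091 probes then passed as well, against 1 of 14281 with all arrays. Hspa1a did not pass without it. Without both animals that share an identifier, Hsph1 passed at -0.75 (limma, adjusted p = 0.0488), Chordc1 did not at -0.44 (adjusted p = 0.0633), and 439 of 13829 probes passed. With all animals, in a single fit of 16 arrays, Chordc1 passed (limma, adjusted p = 0.0371) together with 152 of 15993 probes.

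**Figure D1:**
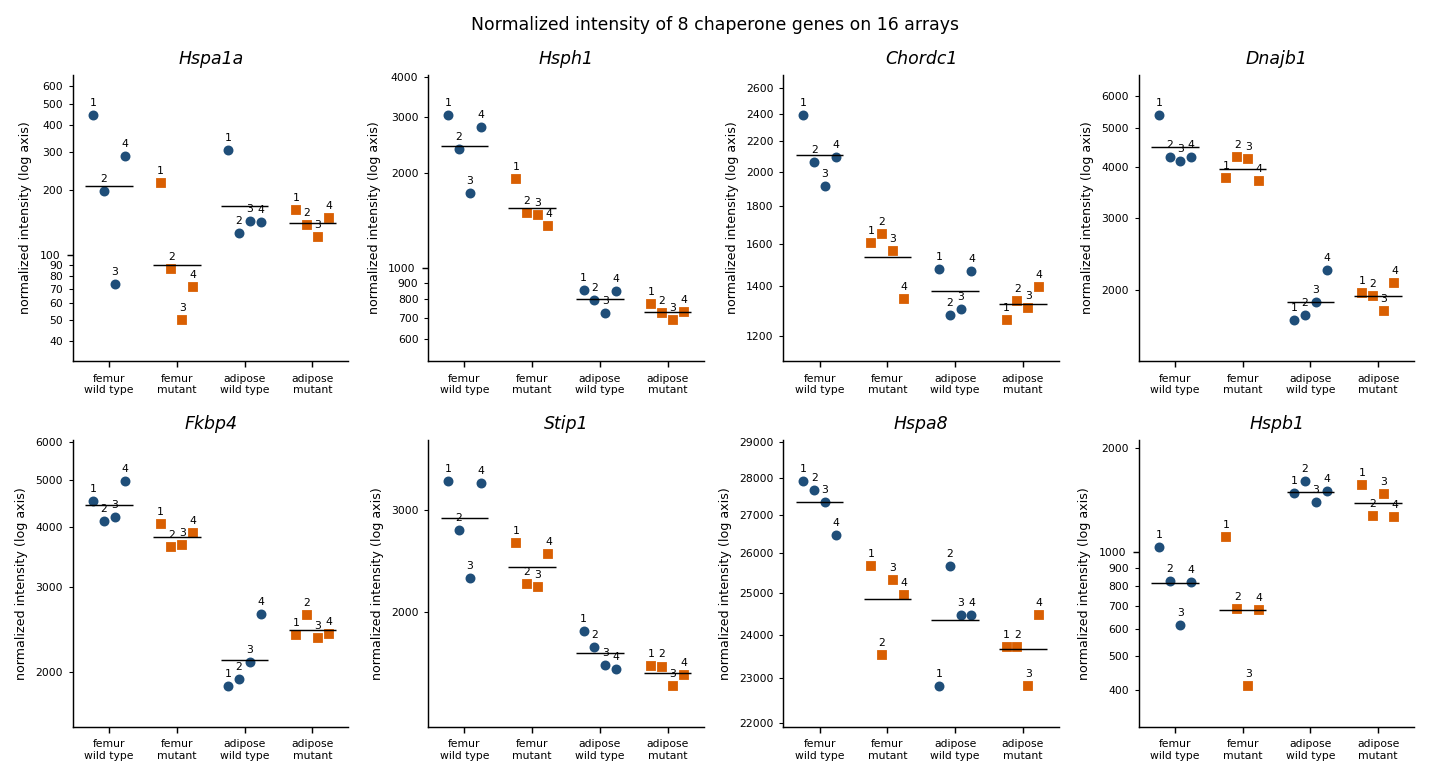
Normalised intensity (log axis) of 8 chaperone genes on the 16 arrays, blue circles for wild type and orange squares for mutants, numbered by replicate, with the geometric mean of each group as a line. In femur, Chordc1 lies between 1346 and 1650 in mutants and between 1912 and 2386 in wild types, and wild type replicate 3 sits lowest of its group for Hspa1a, Hsph1, Chordc1, Dnajb1, Stip1 and Hspb1.

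Among the other inducible members, Dnajb1, the main J protein of inducible Hsp70, measured 5364, 4254, 4157 and 4249 in wild type femur and 3760.0, 4232, 4193 and 3696 in mutants, and the groups overlapped (-0.18 ± 0.11, limma, adjusted p = 0.436). Hsp90aa1, the inducible Hsp90, was dim, at 107, 59.2, 62.1 and 83.2 in wild types and 83.8, 51.2, 100.5 and 31.3 in mutants (-0.32 ± 0.36, limma, adjusted p = 0.68). Neither separated the genotypes. Dnaja4, a J protein, was 882, 805, 749 and 826 in wild types and 739, 710.4, 710.4 and 728 in mutants. Those groups did not overlap, at -0.17 ± 0.08 (limma, adjusted p = 0.327). The remaining inducible members, Hspb1, Hspb8, Cryab, Bag3 and Dnajb4, had differences from -0.26 to -0.07 with overlapping groups.

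Of the constitutive members, Fkbp4, the immunophilin of Hsp90 complexes with steroid receptors, measured 4531, 4114, 4193 and 4985 in wild type femur and 4051, 3641, 3675 and 3880.2 in mutants. The groups did not overlap (-0.22 ± 0.09, limma, adjusted p = 0.279). Hspa8, the constitutive Hsp70, was 27923, 27673, 27335 and 26459 in wild types and 25685, 23510.4, 25313 and 24946 in mutants. These groups were also apart, at -0.14 ± 0.08 (limma, adjusted p = 0.394). Stip1, which joins Hsp70 to Hsp90, was -0.28 ± 0.14 with overlap through wild type replicate 3. The 6 TRiC subunits had a median of -0.08 and 2 of them were higher. Hsf2, the only heat shock factor measured, was 0.16 ± 0.40.

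The mitochondrial members were all lower in mutant femur. Hspd1, the mitochondrial Hsp60, measured 3947, 4009.9, 3547 and 4046 in wild types and 3638, 3397, 3446 and 2794 in mutants (-0.23 ± 0.11, limma, adjusted p = 0.303). Hspe1, its partner Hsp10, was -0.21 ± 0.13, and Hspa9, the mitochondrial Hsp70, -0.11 ± 0.09. None passed the test. Members with an element of 2 units in the promoter window had a median of -0.21 (12 genes, 10 of them lower) and members with a promoter but no match -0.09 (16 genes, 13 lower), given as a description.

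**Figure D2:**
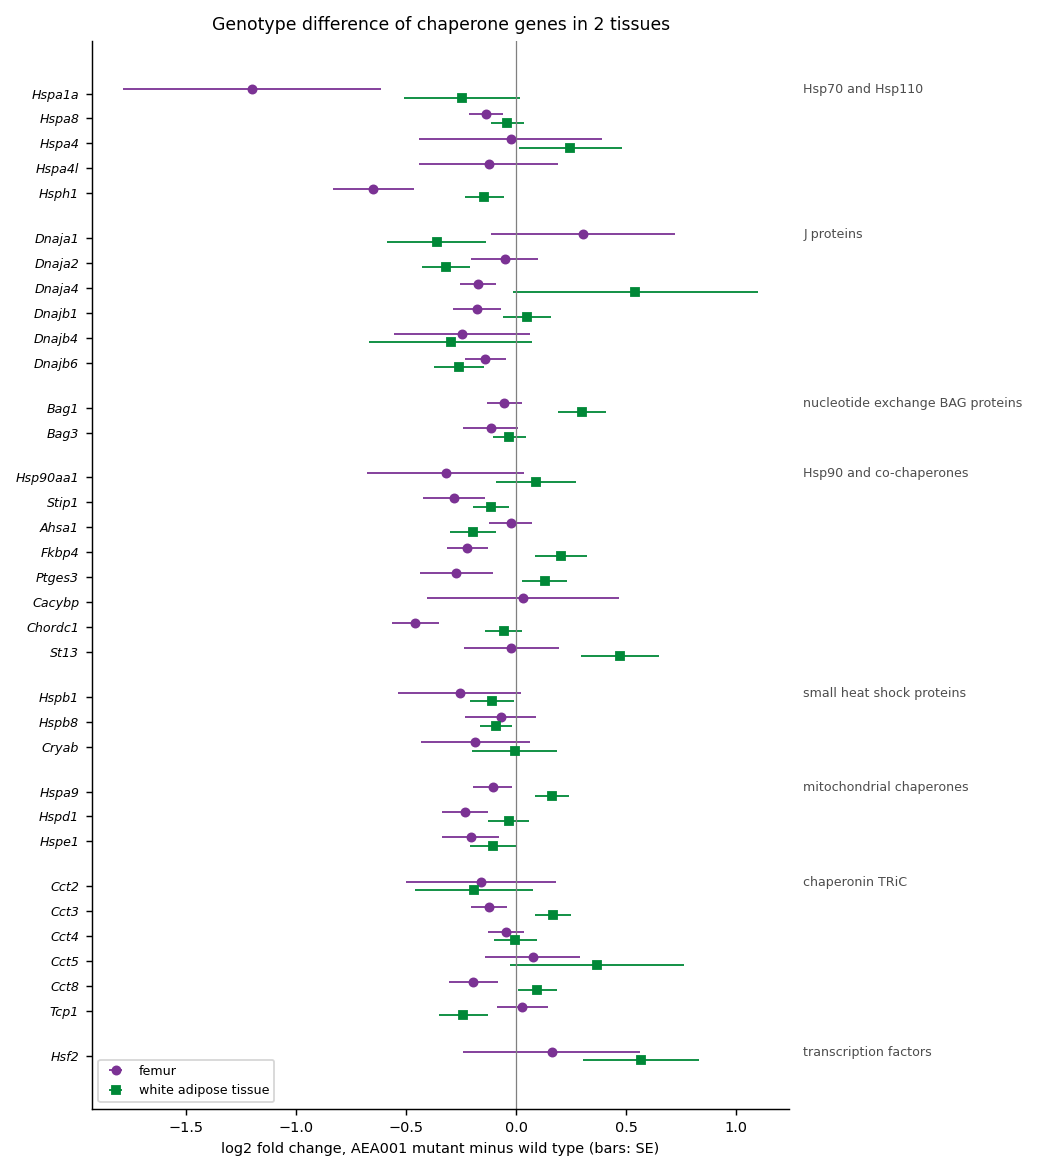
Log2 fold change of mutant over wild type with its SE for each member's brightest kept probe, purple circles for femur and green squares for white adipose tissue, grouped by role. In femur 29 of 34 members lie left of 0 and in white adipose tissue 19 of 32.

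The inducible and constitutive classes can be set against each other on each array by the difference of their mean log2 intensities, which is not a comparison of levels between probes but a contrast whose change between arrays is read. In femur it was 0.89, 0.61, 0.24 and 0.67 in wild types and 0.45, 0.26, 0.16 and 0.35 in mutants. Of the wild types only replicate 3 lay within the mutant values. In white adipose tissue it was 0.22, 0.27, 0.31 and 0.39 in wild types and 0.28, 0.28, 0.19 and 0.30 in mutants, and the groups overlapped throughout. The inducible median fold change minus the constitutive one came to -0.19 for femur and -0.05 for white adipose tissue. The femur value ranged from -0.25 to -0.09 when single animals were left out, and was -0.09 without wild type replicate 1, without mutant replicate 3 and without mutant replicate 4.

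**Figure D3:**
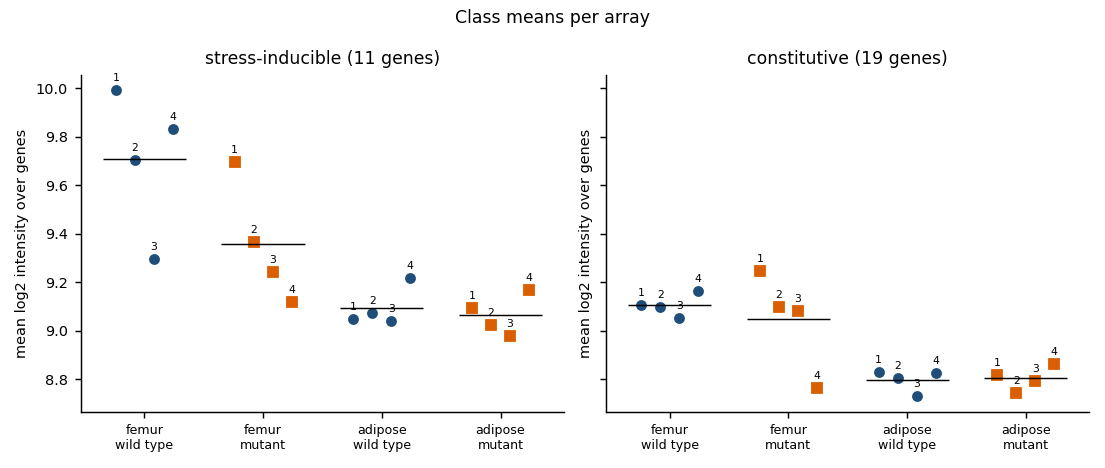
Mean log2 intensity over 11 stress-inducible genes (left) and 19 constitutive genes (right) on each array, numbered by replicate, with the group mean as a line. The inducible mean in femur runs from 9.30 to 9.99 in wild types and from 9.12 to 9.70 in mutants, and in white adipose tissue all 8 arrays lie between 8.98 and 9.22.

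The summed levels of some markers of other cells were also apart between the femur groups, although no marker of the granulocyte, erythroid, B cell and macrophage lists passed the test. The summed intensity of 10 granulocyte markers was 141674 to 157216 in wild types and 157886 to 172698 in mutants, that of 7 erythroid markers 88026 to 91892 and 82317 to 87017, that of 5 B cell markers 4740 to 5528 and 4067 to 4635, and that of 5 macrophage markers 2697 to 4816 and 4549 to 5645. The macrophage sums overlapped and the other 3 did not. At an unadjusted p under 0.05, 5 of 5 macrophage markers and 2 of 10 granulocyte markers were higher in mutants, against 6.53% of all genes. Lower were 3 of 6 erythroid and 1 of 4 B cell markers, against 9.17% of all genes. Of the osteoblast markers 2 of 6 were lower at that p, and none passed the adjusted test. The osteoblast sums overlapped, at 28159 to 37388 in wild types and 27521 to 34788 in mutants. The erythroid gene Epb42 and the B cell gene Pax5 were at or below the floor on all femur arrays. The sum of 11 skeletal muscle markers was 177375 to 197480 in wild types and 170569 to 193641 in mutants, so that the groups overlapped. The part of cell composition in the chaperone differences was not tested, and in bulk tissue fewer cells of a type and less RNA per cell cannot be told apart.

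In white adipose tissue, 19 of 32 members were lower in mutants, against 45.3% of all 9878 genes, and no member passed the test, nor did any gene's brightest probe (0%). At an unadjusted p under 0.05, 2 members were higher and 1 lower, against 13.3% and 12.2% of all genes. The groups were apart for 2 members higher (Bag1 and Hspa9) and 1 lower (Dnaja2), against 8.53% and 7.37%. The stress-inducible median was -0.06, the constitutive one -0.0035 and that of all genes 0.03.

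Dnaja2, a constitutive J protein of the cytosol, measured 198, 166, 164 and 200.2 in wild type white adipose tissue and 158, 142, 130.2 and 153 in mutants. No mutant reached a wild type (-0.32 ± 0.11, limma, adjusted p = 0.133). Bag1, a nucleotide exchange factor of Hsp70, was 9603, 8517, 11606 and 10794 in wild types and 12749, 11919.6, 12174 and 12683 in mutants. Here every mutant lay above every wild type, at 0.30 ± 0.11 (limma, adjusted p = 0.144). St13, the Hsp70-interacting protein Hip, was 445, 374, 457 and 461 in wild types and 443, 573, 625 and 816 in mutants (0.47 ± 0.18, limma, adjusted p = 0.153). Mutant replicate 1 lay within the wild types.

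Dnajb6, a J protein that prevents aggregation, was -0.26 ± 0.11 (limma, adjusted p = 0.193) and Tcp1, a TRiC subunit, -0.24 ± 0.11 (limma, adjusted p = 0.208). Of the members whose femur groups were apart, Chordc1 was -0.06 ± 0.09 here, Hspa8 -0.04 ± 0.08, Fkbp4 0.20 ± 0.12, Dnaja4 0.54 ± 0.56 and the first Dnajb6 probe, the one used in femur, -0.03 ± 0.10. Fkbp4 and Dnaja4, lower in mutant femur, thus had positive values in white adipose tissue, and neither passed the test in either tissue. Hsph1 was -0.14 ± 0.09, Hspa1a -0.25 ± 0.26, Dnajb1 0.05 ± 0.11 and Hsp90aa1 0.09 ± 0.18. Hspa1a was 305, 126, 144 and 143 in wild types and 161, 138, 121 and 148 in mutants. Only wild type replicate 1 stood apart. Dnaja4 spread most, from 321 in wild type replicate 1 over 1056 and 1625 to 2590 in replicate 4, while the mutants measured 1317, 1815, 1472 and 1822. The summed level of 4 mammary or epithelial markers was 249, 630.2, 923 and 1363 in the same wild types and 846, 1163, 1032 and 1361 in the mutants, so that it was lowest and highest in the same wild types as Dnaja4, and its part in the Dnaja4 values was not tested.

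Macrophage markers in white adipose tissue summed to 6208 to 8350 in wild types and to 4626 to 5843 in mutants. These groups did not overlap, and 3 of 5 markers were lower in mutants at an unadjusted p under 0.05, with 0 past the adjusted test. The sums of the other marker lists overlapped between the genotypes. Granulocyte markers summed to 18178 and muscle markers to 11547 in mutant replicate 2, where the other mutants lay between 1004 and 1469 and between 1640 and 2848. The part of these cells in the chaperone values of white adipose tissue was not tested.

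Whether the genotype difference itself differs between the tissues was tested as femur minus white adipose tissue in one fit of 16 arrays. No member passed, where 6.79% of all 10847 genes did with all arrays, a share that depended strongly on single animals. At an unadjusted p under 0.05 were 8 members, against 27.0% of all genes, and 7 of these were lower, against 15.0%. The lowest p belonged to Chordc1 (-0.40 ± 0.13, limma, adjusted p = 0.0677), then Fkbp4 (-0.43 ± 0.15, adjusted p = 0.0816), Cct3, a TRiC subunit (-0.29 ± 0.10, adjusted p = 0.0906), Bag1 (-0.35 ± 0.13, adjusted p = 0.0941) and Dnajb6 (0.48 ± 0.18, adjusted p = 0.103). Hsph1 was -0.51 ± 0.21, Hspa1a -0.95 ± 0.69, Dnajb1 -0.23 ± 0.15, Hspa8 -0.10 ± 0.09 and Hsp90aa1 -0.41 ± 0.43. Without wild type replicate 3, 3 members passed, as did 2794 of 15867 probes. Without wild type replicate 4, 1 member passed, as did 1036 of 15840 probes, against 1178 of 15993 with all arrays. Leaving out any other single animal gave 0 members and between 1 and 191 probes.

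Between the tissues, femur minus white adipose tissue, 16 members were higher and 4 lower in femur of wild types, against 35.6% and 37.6% of all genes. In mutants 12 were higher and 6 lower, against 33.9% and 38.7%. In both genotypes 11 were higher and 4 lower, and the share of all genes called alike in both is not given here. The higher ones include the Hsp90 co-chaperones Fkbp4, Stip1, Ahsa1 and Chordc1 with Hsp90aa1, and the lower ones Hspb1, Hspb8, Hspa9 and St13. The tissue comparisons of the genotypes come from one fit and share its estimate of the spread.

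Cryab, the small heat shock protein alpha B-crystallin, abundant in muscle, measured 2055, 1630.3, 1079 and 1546 in wild type femur and 251, 281, 220.2 and 309 in wild type white adipose tissue. Mutants measured 2016, 1322, 981 and 1277 in femur and 334, 317, 233 and 190.2 in white adipose tissue. The tissues were far apart in both genotypes, by 2.55 ± 0.24 in wild types (limma, adjusted p = 8.17e-08) and 2.37 ± 0.24 in mutants (adjusted p = 1.96e-07). Dnajb1 was 1688, 1739, 1867 and 2237 in wild type white adipose tissue and 1973, 1932, 1777 and 2079.7 in that of mutants. Its femur values lay above all of these, by 1.26 ± 0.11 in wild types (limma, adjusted p = 3.17e-08) and 1.03 ± 0.11 in mutants (adjusted p = 3.39e-07).

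Hsph1 measured 853, 793, 722 and 849.5 in wild type white adipose tissue and 772, 721, 686 and 728 in that of mutants, below all femur arrays. The tissue difference was 1.60 ± 0.15 in wild types (limma, adjusted p = 9.14e-08) and 1.09 ± 0.15 in mutants (adjusted p = 7.39e-06). Cct8, a TRiC subunit, was higher in femur by 1.03 ± 0.10 and 0.74 ± 0.10, Fkbp4 by 1.07 ± 0.10 and 0.64 ± 0.10, and Hsp90aa1 by 1.56 ± 0.31 and 1.15 ± 0.31. Hspa8 was higher by 0.17 ± 0.07 in wild types and 0.07 ± 0.07 in mutants, and did not pass in mutants (limma, adjusted p = 0.358). Its call in wild types was lost with cyclic loess, array weights and the mean of all probes of a gene. It was also lost without both animals that share an identifier, and with each wild type left out in turn. A second Hspa8 probe went the other way in wild types, with overlap (5706 to 9578 in femur, 7214 to 15521 in white adipose tissue). Hspa1a did not differ past the threshold in either genotype, at 0.31 ± 0.49 in wild types and -0.65 ± 0.49 in mutants. Chordc1 was higher by 0.61 ± 0.09 in wild types (limma, adjusted p = 1.87e-05) and by 0.21 ± 0.09 in mutants (adjusted p = 0.0493). The mutant call was lost with the animal as a random block. It was also lost without wild type replicate 2 or 4, and without mutant replicate 1, 2 or 3.

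The lower members in femur were led, in wild types, by Hspb8, a small heat shock protein that works with Bag3, which measured 566, 804, 637 and 836 in wild type femur and 1504, 1400.3, 1394 and 1336 in wild type white adipose tissue. The difference was -1.004 ± 0.13 (limma, adjusted p = 3.31e-06) in wild types and -0.98 ± 0.13 (adjusted p = 4.19e-06) in mutants. Hspb1, the small heat shock protein Hsp25, was -0.88 ± 0.22 and -1.03 ± 0.22, Hspa9 -0.46 ± 0.08 and -0.73 ± 0.08, and St13 -0.75 ± 0.21 and -1.24 ± 0.21. In mutants St13 had the lowest value, and Dnaja4 and Hspb1 were also below Hspb8. Bag1 (-0.34 ± 0.09) and Dnaja4 (-1.14 ± 0.42) passed in mutants and not in wild types, and the test of that difference did not pass for either. Of the stress-inducible class 6 of 11 were higher and 2 lower in wild type femur, and of the constitutive class 8 of 19 higher and 1 lower, against the 35.6% and 37.6% of all genes. In mutants the counts were 6 and 3 for the stress-inducible class and 6 and 2 for the constitutive class, against 33.9% and 38.7%.

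Skeletal muscle markers summed to 170569 to 197480 in femur and to 1640 to 11547 in white adipose tissue, granulocyte markers to 141674 to 172698 and 975 to 18178, and adipocyte markers to 1869 to 3302 and 62337 to 72909. The osteoblast markers summed to 27521 to 37388 in femur and to 1616 to 5018 in white adipose tissue. In wild type white adipose tissue the muscle genes Ckm, Myh4 and Myh1 and the granulocyte genes Mpo, Ltf, Camp, Ngp and Mmp8 were at or below the floor on all arrays, and the adipocyte genes Fabp4 and Retn were in femur. The part of these cells in the tissue differences was not tested.

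**Figure D4:**
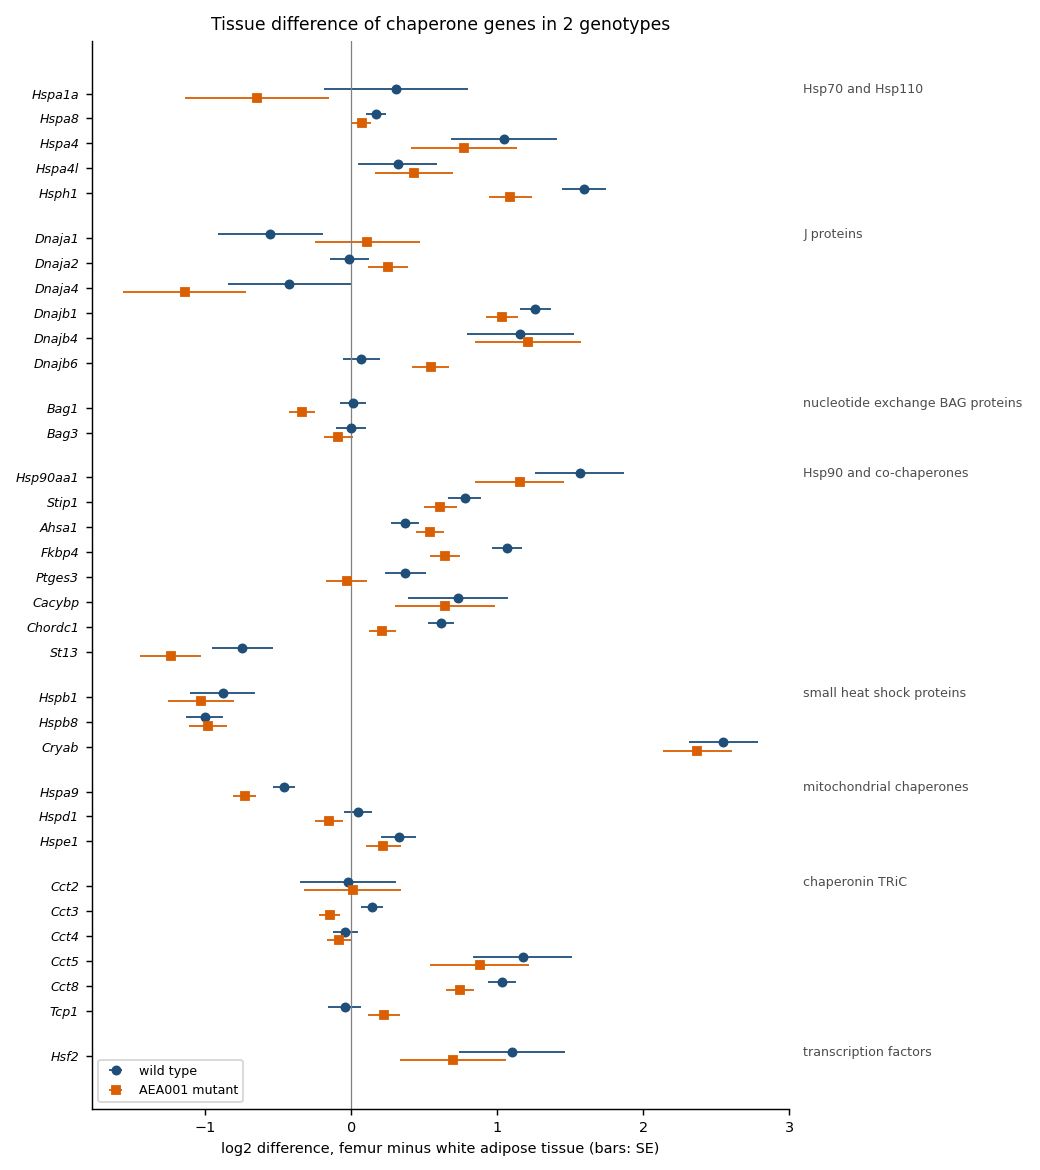
Log2 difference of femur minus white adipose tissue with its SE for each member's brightest kept probe, blue circles for wild type and orange squares for mutants, grouped by role. Cryab lies furthest right, at 2.55 and 2.37, and in wild types Hspb8 and Hspb1 lie at -1.004 and -0.88.

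Of a further 63 chaperone genes listed, 55 had a probe and 50 were tested in femur and between the tissues. In femur 0 passed between genotypes, as did 0% of all genes. At an unadjusted p under 0.05, 1 was lower and 0 higher, against 9.17% and 6.53% of all genes. The smallest p belonged to Txndc9, a regulator of TRiC (-0.58 ± 0.21, limma, adjusted p = 0.23), and Ppid, a cyclophilin of Hsp90 complexes (-0.15 ± 0.09, adjusted p = 0.396). In white adipose tissue 0 of 45 passed, and 11 were higher and 6 lower at an unadjusted p under 0.05, against 13.3% and 12.2% of all genes, led by Tomm70a, a receptor for mitochondrial import (0.60 ± 0.15, limma, adjusted p = 0.112), and Hspb7, a muscle small heat shock protein (-2.06 ± 0.60, adjusted p = 0.115). Between the tissues 21 of 50 were higher and 20 lower in wild type femur, against 35.6% and 37.6% of all genes, and 17 and 19 in mutants, against 33.9% and 38.7%. The muscle small heat shock protein Hspb6 was higher by 2.54 ± 0.10 (limma, adjusted p = 2.24e-12), and Hspb3 was at the floor on all 8 white adipose arrays. Hspa12b, a distant Hsp70 relative of endothelium, was -2.91 ± 0.16 (limma, adjusted p = 1.09e-10) and Sgta, a co-chaperone of membrane protein sorting, -1.53 ± 0.10 (adjusted p = 1.78e-09).

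Probes of the same gene did not always go the same way, and some probes of Dnajb6 and of Dnajb4 are annotated to different transcripts. Of 8 members with several kept probes, 2 had one sign over their probes in the femur comparison of genotypes. In white adipose tissue 6 of 7 did, and 4 of 8 for the genotype difference in femur minus that in white adipose tissue. Between the tissues 3 of 8 had one sign in wild types and 6 of 8 in mutants. The second probe of Hspa8 measured 7508, 5791, 9578 and 5706 in wild type femur and 7737, 7573, 7908 and 8111 in mutants, at 0.17 ± 0.16 where the first gave -0.14. For Hspd1 the second probe measured 577, 589.8, 919 and 517 in wild types and 697, 782, 884 and 911 in mutants, at 0.36 ± 0.18 where the first gave -0.23. In both, wild type replicate 3 was the highest femur array on the second probe.

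The second Tcp1 probe gave 0.45 ± 0.20 in femur and -0.52 ± 0.22 in white adipose tissue. The second Dnajb6 probe, brighter than the first in white adipose tissue, gave 0.22 ± 0.13 in femur and -0.26 ± 0.11 in white adipose tissue. It is this probe that gave the tissue difference of 0.48 for Dnajb6, where the first gave -0.11 ± 0.13. For Cct3 the second probe gave 0.34 ± 0.20 where the first gave -0.29. Among the tissue differences in wild types, Dnajb4 was 1.16 ± 0.36 on its brightest probe, past the threshold, while another measured 18.2, 14.6, 15.6 and 20.5 in femur and 79.6, 52.2, 57.1 and 53.9 in white adipose tissue. That probe was lower in femur past the threshold, but its femur values lay at or near the floor of 16, so the size of the difference depends on the floor. The second Hspd1 probe ran from 517 to 919 in wild type femur and from 937 to 1786 in wild type white adipose tissue. On the first probe the same groups overlapped, at 3547 to 4046 and 3552 to 4037. The calls for these genes therefore hold for the probe named and not for the gene as a whole.

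**Figure D5:**
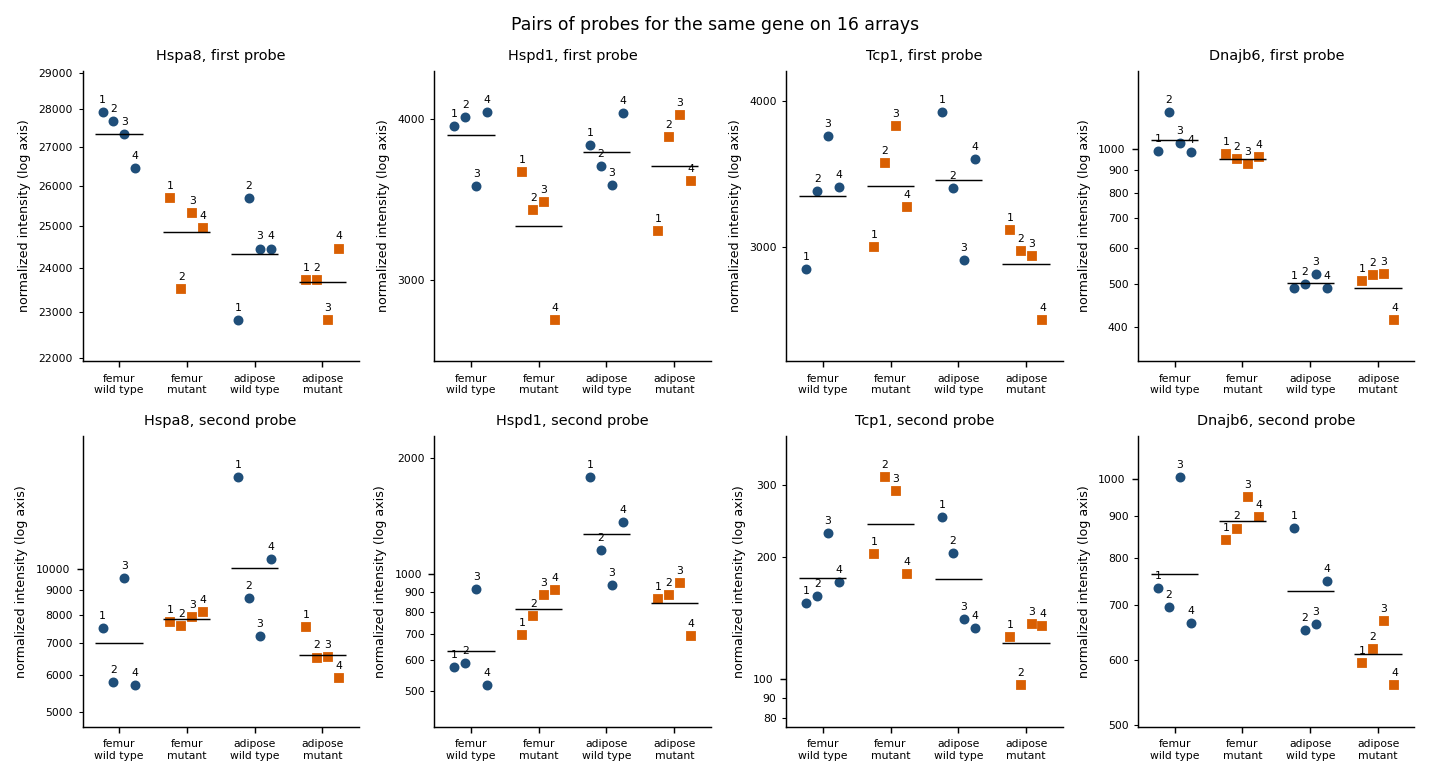
Normalised intensity (log axis) on the 16 arrays for the first and second probe of Hspa8, Hspd1, Tcp1 and Dnajb6, with symbols and lines as in the plot of 8 genes. The second Hspd1 probe runs from 517 to 919 in wild type femur and from 697 to 911 in mutant femur, and wild type replicate 3 is the highest wild type femur array on all 4 second probes.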

How the data were processed

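Femur and white adipose tissue of 4 wild type and 4 AEA001 mutant mice were measured on 16 arrays. The deposited values are normalized intensities, for which the submitters' processing notes name GenomeStudio 2011.1. How background was corrected and arrays were normalized is not given in the sources used here. Of the deposited intensities, 25.3% to 25.4% per array are negative, and the sorted values nearly coincide across arrays (medians 25.2 to 25.3). A second table has 16 signal columns that match no sample label and were not used.

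Intensities were floored at 16 and log2-transformed, and a probe was kept if above 16 on at least 4 arrays of a fit. Platform symbols named 23978 probes and left 1719 unnamed. limma 3.58.1 in R 4.3.3 (lmFit, eBayes) was fitted to all kept probes, per tissue for genotype and to 16 arrays with 4 group means otherwise, with Benjamini-Hochberg adjustment over all kept probes and 0.05 as threshold. A gene was represented by its brightest kept probe, so shares of all genes count these. Exact permutation tests used 70 relabelings. The fits were tested on simulated data. Alternatives covered the floor, an offset, probe filters, cyclic loess, moderation, array weights, several probes, single animals, blocks, the threshold and the class lists. Same-numbered femur and adipose arrays are from the same animal by the labels. The correlation of their deviations was -0.24 to 0.03, and it was -0.07 to 0.32 between same-numbered genotypes, whose numbers pair nothing.

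Named in full were, per comparison, members passing (at most 5 per direction) or the 5 of smallest p, 8 defining genes, and 2 to 4 genes of the further list. The members and lists were chosen with earlier results of these data known.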

Additional observations from a re-analysis of the deposited data

Results flagged for a closer look

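In 7 of 124 groups of 4 arrays, 1 array stood far from the other 3, where chance flags about 1 in 20 groups (6.2 here). In wild type femur, replicate 3 was low for Bag3 (3088, the others 4082 to 4237) and for Dnajb4 (97.13, the others 150.5 to 164.2), and replicate 1 was high for Dnajb1 (5364, the others 4157 to 4254). In mutant femur, replicate 4 was low for Ptges3 (336.5, the others 520.3 to 545). In wild type white adipose tissue, replicate 3 was low for Dnajb4 (40, the others 70.95 to 74.35) and high for Hspa4 (67.65, the others 47.94 to 49.18), and replicate 1 was high for Hspa1a (304.6, the others 126.4 to 144.1).

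The genotype difference of Dnajb2, a neuronal and muscle J protein outside the members, differed between the tissues (-0.76 ± 0.21 on the log2 scale, limma, adjusted p = 0.0424). The values were -0.21 ± 0.12 for femur and 0.55 ± 0.16 for white adipose tissue. Neither passed the test alone. Of the 50 further chaperones tested for this difference, 1 passed, Dnajb2, against 6.79% of all genes. The number of probes passing depended on single animals, from 1 of 15859 without wild type replicate 2 to 2794 of 15867 without wild type replicate 3. Values of Dnajb2 without single animals are not given here.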

How the results depend on the processing

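In femur the count of members called, 0, became 1 without both animals that share an identifier (439 of 13829 probes). It became 1 in one fit of all 16 arrays (Chordc1, -0.46, with 152 of 15993 probes) and 2 at an adjusted p under 0.20. When single replicates were left out it was 0 to 2, with 0 to 710 probes passing. It stayed 0 with the replicate block in both tissues, and the count of white adipose tissue became 4 at 0.20. The count of the difference between tissues, 0 where 1178 of 15993 probes passed, became 3 with a floor of 32 (1428 probes) and 1 with an offset of 50 (1689 probes). It became 2 with probes above 32 on every array (1705 of 9631), 5 with trend and robust moderation (1682 probes) and 3 with array weights (2456 probes). It was 2 without both animals (1888 of 15641), 8 at 0.20 and 0 to 3 without single replicates (1 to 2794 probes). The share of all genes passing at 0.20 is not given here, so the counts at 0.20 have no background. With the animal as a random replicate block, 20 members were called between the tissues in wild types and 17 in mutants, against 20 and 18. The count of members lower in mutant femur, 29, ranged from 24 (without mutant replicate 4) to 31 when single replicates were left out. It was 25 without both animals that share an identifier and 24 with the mean of all probes of a gene. Averaging all probes of a gene turned Hspd1 in femur to 0.0637 and Cct3 in the difference between tissues to 0.0251, since their other probes go the other way. The inducible minus constitutive median moved from 0.44 to -0.0104 between tissues in wild types and from -0.04 to -0.52 in mutants with that average, and to 0.37 in mutants with a broader inducible list. For the difference between tissues it moved from -0.13 to 0.12 with that list and to 0.02 with probes above 32 on every array, and ranged from -0.19 to 0.0459 without single replicates, the highest without wild type replicate 1. The causes of the other moves were not tested. Dim probes (Hsp90aa1, Dnaja1, Cct2, Cct5, Cacybp and Hspa4l lie near the floor) limit what can be detected.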
